A study of Mus musculus with 4 samples.

Results

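The collagen genes were taken as every gene whose symbol is Col, a number, the letter a and a number. This rule found 44 of the 32285 genes in the tables, and 38 of them had at least 20 UMIs over the 4 libraries and are called measured. A UMI (unique molecular identifier) is 1 counted RNA molecule. Col9a1 had 17 UMIs, Col17a1 8, Col19a1 8, Col24a1 4, Col10a1 2 and Col6a4 1, and these 6 genes were not measured.

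The cells came from mouse spinal cords profiled by droplet single-cell RNA sequencing of transcript 3′ ends. Cords of 2 mice were pooled into each library, and each group of the study was 1 library. The library labelled CD8 KO came from mice homozygous for P301S, a transgene for a mutant human tau protein, with a CD8 knockout at 30 weeks. The 33-week library came from P301S homozygous mice with wild-type CD8 at 33 weeks, and the 30-week P301S library from mice of that genotype at 30 weeks. The P301S-negative library came from mice with wild-type CD8 and no P301S transgene at 30 weeks. Mice of all 4 groups were perfused with saline. Their cords were broken up, under heating, with an enzyme kit made for tumours and then cleared of myelin with magnetic beads, so that the cells are those that survived these steps. The labels name neither the promoter of the transgene nor the CD8 gene that was altered. All 3 comparisons (30-week P301S over P301S-negative, CD8 KO over wild type, 33 over 30 weeks) use the 30-week P301S library and are therefore not independent of each other.

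Collagens are secreted or membrane-bound proteins made of chains wound into a triple helix. Fibrillar collagens form the cables of connective tissue, type IV collagens form the mesh of basement membranes, and smaller families coat the fibrils, link them to other matrix or sit in the cell membrane. In the spinal cord, collagen lies in the meninges, in the nerve roots, in the basement membrane around vessels and under the glial surface, while the tissue between neurons holds little of it.

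Total UMIs were 43531426 in the library labelled CD8 KO, 36331214 in the 33-week library, 42401255 in the 30-week P301S library and 42823896 in the P301S-negative library. After filtering, 5066, 4786, 4693 and 5646 cells were kept in the same order, which is the order of all values of the 4 libraries given without names below. Cells were assigned to classes by marker genes, with all collagen genes kept out of the clustering. Fibroblasts numbered 28, 18, 35 and 29 cells, pericytes 61, 41, 40 and 85, smooth muscle cells 72, 50, 31 and 103, Schwann cells 87, 34, 37 and 34, and endothelial cells between 938 and 1726. Microglia with macrophages numbered 2330, 1588, 1941 and 1326 cells. Between 19 and 25 cell barcodes in each library were also found in another library. By Xist and Y-linked genes, 8 female and 3082 male cells were counted in the library labelled CD8 KO, 1687 female and 1304 male cells in the 33-week library, 3724 female and 0 male cells in the 30-week P301S library, and 2046 female and 1565 male cells in the P301S-negative library. Sex therefore cannot be told apart from CD8 genotype, and the mix of sexes also differs in the comparisons by P301S and by age. Cd8a stood at 16.1 CPM in T cells of the library labelled CD8 KO and at 197, 269 and 232 CPM in T cells of the 33-week, 30-week P301S and P301S-negative libraries. CPM is the UMIs of a gene scaled to 1000000 UMIs of the class. In endothelial cells Cd8a stood at 119 CPM in the library labelled CD8 KO (835 UMIs) and had 0 UMIs in the 33-week, 30-week P301S and P301S-negative libraries, which allows up to 0.580, 0.550 and 0.242 CPM (a limit at 0 is the CPM of 3 UMIs throughout). Whether this bears on the values of that library was not tested. With 1 library per group no test between groups exists, and every interval given is a 95% interval for counting error only.

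Fibroblasts carried the most collagen RNA of the classes. Summed over the 44 genes, collagens made up 8037 CPM of fibroblast RNA in the library labelled CD8 KO, 8832 CPM in the 33-week library, 10778 CPM in the 30-week P301S library and 7844 CPM in the P301S-negative library. Over all libraries the sum was 8971 CPM in fibroblasts, or 0.897% of their UMIs. Schwann cells followed with 2260 CPM, pericytes with 1646 CPM, smooth muscle cells with 971 CPM and astrocytes with 874 CPM. Endothelial cells held 470.3 CPM, oligodendrocyte precursors 453 CPM and ependymal cells 429 CPM. The astrocyte rank was not the same in each library. Astrocytes held 358 CPM in the P301S-negative library, below endothelial cells (454 CPM), and 1126 CPM in the 33-week library, above smooth muscle cells (861 CPM). The immune classes were far lower, at 53.1 CPM in microglia with macrophages, 12.5 CPM in monocytes and 8.33 CPM in neutrophils. B cells, T cells and erythroid cells held 26.7, 13.6 and 27.0 CPM. Of these sums, Col5a1 made up 19.0 CPM in erythroid cells, and Col27a1 and Col5a3 made up 8.09 and 7.74 CPM in B cells. The fibroblast range over libraries did not meet the range of any other class.

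**Figure D1:**
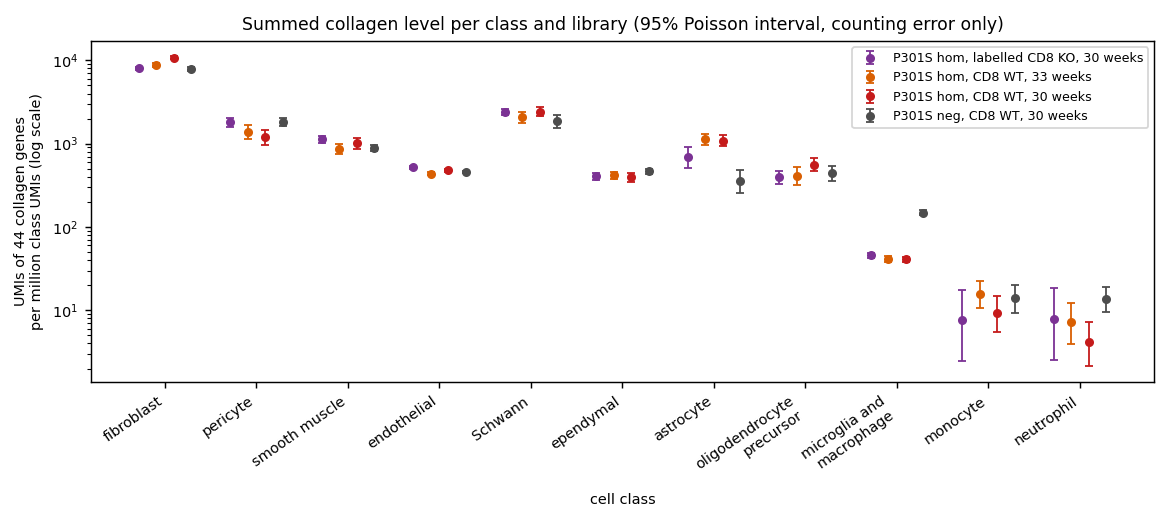
Summed CPM of the 44 collagen genes (log axis) in each cell class, with 1 point per library. Fibroblasts sit between 7844 and 10778 CPM and above every other class, and among microglia with macrophages the P301S-negative library (149 CPM) lies above the other 3 (41.1 to 45.5 CPM).

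The families were spread unevenly over the classes. Of the 38 measured genes, 19 had their highest mean CPM in fibroblasts, 7 in pericytes, 3 in Schwann cells, 3 in astrocytes, 2 in smooth muscle cells, 2 in oligodendrocyte precursors, 1 in endothelial cells and 1 in ependymal cells. None was highest in microglia with macrophages, monocytes or neutrophils. B, T and erythroid cells were not ranked. No share of all genes by highest class is given beside these counts. Some of these ranks are narrow. The highest class stood at only 1.03 times the next for Col11a1, 1.04 for Col20a1, 1.05 for Col26a1, 1.10 for Col6a6, 1.14 for Col4a5 and 1.19 for Col4a6. Others rest on few counts, such as Col22a1 with 28, Col20a1 with 38 and Col7a1 with 58 UMIs over all libraries and classes. Of the 10 measured fibrillar genes 7 were highest in fibroblasts, and of the 6 basement membrane genes 5 were highest in pericytes and 1 in smooth muscle cells. Fibrillar collagens made up 59.2% of collagen UMIs in fibroblasts and 67.9% in Schwann cells. Type IV collagens made up 92.3% of collagen UMIs in endothelial cells, 60.3% in smooth muscle cells and 52.8% in pericytes.

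**Figure D2:**
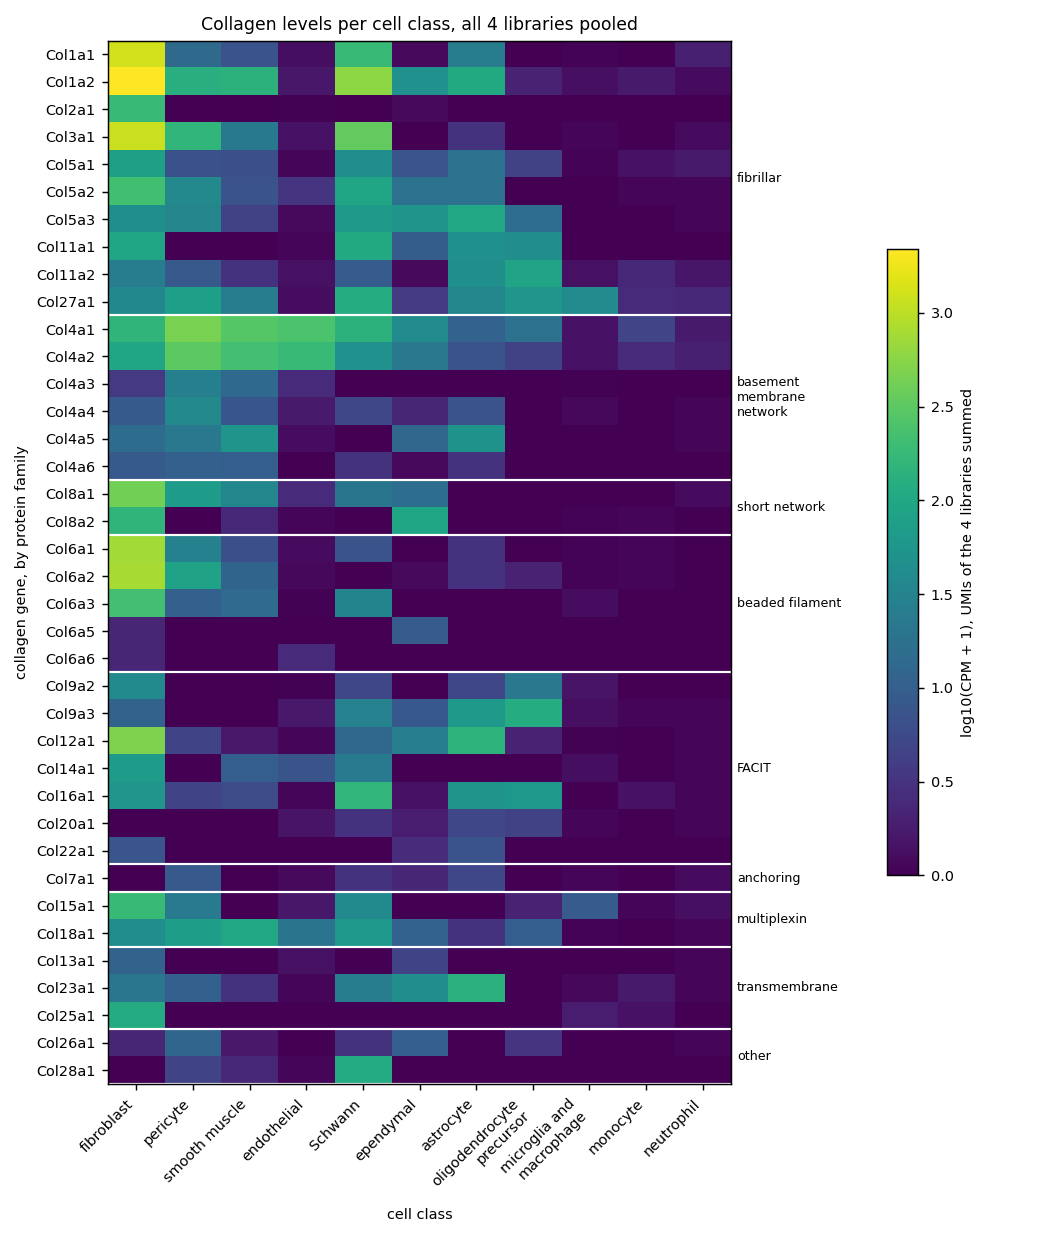
Heatmap of log10(CPM + 1) for the 38 measured collagen genes (rows, grouped by family) in 11 cell classes (columns), with the 4 libraries pooled. Col1a1, Col1a2, Col3a1, Col6a1 and Col6a2 are brightest in fibroblasts, and Col4a1 and Col4a2 are the brightest rows in endothelial cells, pericytes and smooth muscle cells.

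The number of genes behind these sums differed as well. In fibroblasts 23 collagens had at least 20 UMIs, and the leading gene, Col1a2, held 24.3% of their collagen UMIs. Endothelial cells showed 11 such genes, but Col4a1 alone held 53.0% and Col4a1 with Col4a2 held 91.8%. Ependymal cells showed 16, with Col8a2 leading at 21.5%. Counts are taken at transcript ends and are not divided by length, so levels are compared between classes for 1 gene, and between genes only as UMIs.

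In fibroblasts the major fibrillar chains led. Col1a2, which encodes the second chain of type I collagen, stood at 2406 CPM in the library labelled CD8 KO, 2125 CPM in the 33-week library, 2647 CPM in the 30-week P301S library and 1377 CPM in the P301S-negative library. Col1a1, its partner chain, stood at 1466, 1454, 1451 and 788 CPM in the same order. For both chains the 3 P301S libraries lay above the P301S-negative library. A few cells held much of these counts. The top 3 cells held 50.8%, 54.7%, 39.6% and 28.8% of the Col1a2 UMIs in the same order. For Col1a1 they held 56.5%, 62.6%, 31.6% and 30.1%. In the 30-week P301S library 1 cell held 163 of the 611 Col1a2 UMIs (26.7%). Type I collagen is assembled from a pair of α1 chains and an α2 chain, while the UMIs ran the other way, with 0.596 Col1a1 UMIs per Col1a2 UMI (0.55–0.645). Col3a1, the chain of type III collagen found in pliable tissue, stood at 1028 CPM in the library labelled CD8 KO, 1009 CPM in the 33-week library, 1529 CPM in the 30-week P301S library and 992 CPM in the P301S-negative library. Only the 30-week P301S library stood apart, and 1 of its cells held 107 of its 353 Col3a1 UMIs (30.3%).

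Minor fibrillar chains, which sit inside type I fibrils and limit their width, were lower. Col5a2 stood at 136 CPM in fibroblasts of the library labelled CD8 KO, 199 CPM in the 33-week library, 321 CPM in the 30-week P301S library and 160 CPM in the P301S-negative library, and 1 cell held 31 of the 74 Col5a2 UMIs of the 30-week P301S library (41.9%). Col5a1 averaged 73.8 CPM over the libraries. Col11a1 averaged 93.0 CPM in fibroblasts and 90.6 CPM in Schwann cells, a ratio of 1.03, and with the libraries pooled Schwann cells were higher (105 CPM, against 93.7 CPM in fibroblasts). Col2a1, the main fibrillar chain of cartilage, had 0 UMIs in the library labelled CD8 KO (a limit of 14.6 CPM) and the 33-week library (19.9 CPM), 11 UMIs (47.7 CPM) in the 30-week P301S library and 126 UMIs (694 CPM) in the P301S-negative library. A single cell held 123 of those 126 UMIs. Col9a2, a chain of the type IX collagen that coats cartilage fibrils, followed a like course in fibroblasts, with 0, 0, 26.0 and 132 CPM in the same order and 17 of the 24 P301S-negative UMIs in 1 cell. A list of 8 cartilage cell markers summed to 828, 491, 3011 and 4120 CPM in these fibroblasts, with 4, 2, 4 and 7 of the 8 detected and none at 0 in the pooled class. A list of 8 bone cell markers summed to 0, 0, 30.3 and 187 CPM, with Bglap, Bglap2, Dmp1, Ifitm5 and Mepe at 0, and the part of such cells in the fibroblast values was not tested.

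Type VI collagen, whose chains build beaded filaments around cells, came next. Col6a1 averaged 747 CPM in fibroblasts, 33.8 times the next class, and Col6a2 averaged 784 CPM, 11.6 times the next class. Col6a2 stood at 555 CPM in the library labelled CD8 KO, 870 CPM in the 33-week library, 1178 CPM in the 30-week P301S library and 534 CPM in the P301S-negative library. These chains were counted in near equal numbers, with 0.94 Col6a1 UMIs per Col6a2 UMI (0.837–1.05). Col6a3, the large partner chain, averaged 204 CPM, with 0.288 UMIs per Col6a1 UMI. The other chains of the family were rare: Col6a6 was highest in endothelial cells at a mean of 1.19 CPM, and Col6a5 in ependymal cells at 7.03 CPM.

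The remaining fibroblast genes came from small families. Col12a1 encodes a FACIT, a collagen that binds the surface of fibrils, and averaged 488 CPM. Col14a1, a second FACIT, averaged 66.3 CPM, and Col22a1, known from tissue junctions, 6.43 CPM. Col8a1, a chain of the short network collagen type VIII, averaged 441 CPM, and its partner Col8a2 averaged 152 CPM. Col15a1, a multiplexin of the outer basement membrane, averaged 174 CPM. Of the transmembrane collagens, Col25a1, known from human amyloid plaques, averaged 118 CPM, and Col13a1, known from the neuromuscular junction, averaged 9.97 CPM. The Col25a1 mean was 166 times that of microglia with macrophages, the next of the ranked classes. B cells, which were not ranked, held Col25a1 at 3.52 CPM with the libraries pooled.

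The fibroblast class held 2 clusters that shared out these genes. A cluster led by Cytl1, Lum and Cilp had 9, 5, 19 and 19 cells in the library labelled CD8 KO, the 33-week library, the 30-week P301S library and the P301S-negative library. A cluster led by Atp1b1, Ramp1 and Ptgds had 19, 13, 16 and 10 cells in the same order. Col15a1 stood at 506 CPM in the first cluster and 23.3 CPM in the second, and Col4a1 at 383 and 36.9 CPM. Col3a1 stood at 2251 CPM in the first cluster and 633 CPM in the second, and Col5a2 at 391 and 120 CPM. All 137 Col2a1 UMIs and all 30 Col9a2 UMIs fell in the first cluster. The other genes ran in the opposite direction: Col12a1 stood at 118 CPM in the first cluster and 666 CPM in the second, Col8a1 at 197 and 538 CPM, and Col8a2 at 39.5 and 208 CPM. Col25a1 had 0 UMIs in the first cluster (a limit of 11.8 CPM) and 169 CPM in the second. Col6a1 (746 and 753 CPM) and Col1a1 (1339 and 1279 CPM) were close between the clusters.

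Fibroblasts numbered under 30 cells in 3 of the 4 libraries, so their folds are given for classes of at least 15 cells. In each comparison 12 collagens reached 50 UMIs over both libraries. In the 30-week P301S library over the P301S-negative library, 2 of the 12 were at least 2-fold higher, against 3.06% of all genes compared in fibroblasts, and 1 was at least 2-fold lower, against 4.25%. Col6a2 was 2.21-fold higher (1.74–2.81) and Col5a2 2.01-fold higher (1.29–3.2). Of the 74 Col5a2 UMIs of the 30-week P301S library, 31 lay in 1 cell. Col2a1 was the lower gene, at a fold of 0.0687 (0.0334–0.127), and rests on the single cell named above. Col1a2 (1.92-fold, 1.66–2.24) and Col1a1 (1.84-fold, 1.51–2.26) stayed under 2-fold, and Col8a1 lay at 0.703 (0.509–0.970). Of the 611 Col1a2 UMIs of the 30-week P301S library, 163 lay in 1 cell. The median over the 12 was 0.58 on the log2 scale.

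In the library labelled CD8 KO over the 30-week P301S library, 0 of the 12 collagens were at least 2-fold higher in fibroblasts and 5 were at least 2-fold lower, against 3.55% and 3.91% of all genes compared. Col15a1 stood at 34.1 CPM in the library labelled CD8 KO and 321 CPM in the 30-week P301S library, a fold of 0.106 (0.0413–0.230). Col4a1 lay at a fold of 0.383 (0.203–0.687), Col5a2 at 0.425 (0.265–0.665), Col6a2 at 0.471 (0.375–0.589) and Col6a3 at 0.496 (0.321–0.753). In the 30-week P301S library 1 cell held 25 of the 47 Col4a1 UMIs (53.2%), and 1 cell held 31 of the 74 Col5a2 UMIs. The library labelled CD8 KO had 16 Col4a1 UMIs. Col1a1 was level between these libraries, with a fold of 1.01 (0.862–1.18). Col15a1, Col4a1 and Col5a2 are genes of the Cytl1-led cluster, which held 9 of 28 fibroblasts in the library labelled CD8 KO, against 19 of 35 in the 30-week P301S library. Within that cluster Col15a1 stood at 90.3 CPM in the library labelled CD8 KO and 802 CPM in the 30-week P301S library, from 4 and 72 UMIs.

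In the 33-week library over the 30-week P301S library, 0 of the 12 were at least 2-fold higher and 2 were at least 2-fold lower, against 1.88% and 4.86% of all genes compared. Col6a3 stood at 86.3 CPM in fibroblasts of the 33-week library and 334 CPM in the 30-week P301S library, a fold of 0.259 (0.132–0.469). Col15a1 stood at 99.6 and 321 CPM in the same order, a fold of 0.311 (0.166–0.546). Col1a1 was level here too, with a fold of 1. The 33-week class held only 18 cells, 5 of them from the Cytl1-led cluster.

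Col4a1 and Col4a2 encode the chains of the common type IV collagen, found in nearly every basement membrane. They lie head to head on chromosome 8 of GRCm38 (the mm10 build), Col4a1 from 11198423 to 11312826 on the minus strand and Col4a2 from 11312805 to 11449287 on the plus strand, with start sites 21 bases apart. The Col4a5 and Col4a6 genes form a like pair on chromosome X, with start sites 1309 bases apart. The promoters of both pairs (RefSeq, GRCm38.p6, 250 bases before to 50 after each start) are shown. Genes of the first pair overlap, and those of the second lie farther apart. The head-to-head pair Col4a4 and Col4a3, with start sites 72 bases apart, is left out, as Col4a3 had no promoter in the RefSeq table. Capitals mark CCAAT boxes (CCAAT or ATTGG) and GC boxes (GGGCGG or CCGCCC), and TATAAA was searched on both strands as well.
Col4a1, chr8:11312777-11313076, minus strand: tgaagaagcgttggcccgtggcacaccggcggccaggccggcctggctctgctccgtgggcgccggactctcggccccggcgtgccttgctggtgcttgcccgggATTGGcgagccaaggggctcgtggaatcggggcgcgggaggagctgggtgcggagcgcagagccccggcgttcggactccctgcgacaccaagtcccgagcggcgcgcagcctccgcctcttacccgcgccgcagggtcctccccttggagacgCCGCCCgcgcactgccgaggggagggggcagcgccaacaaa
Col4a2, chr8:11312555-11312854, plus strand: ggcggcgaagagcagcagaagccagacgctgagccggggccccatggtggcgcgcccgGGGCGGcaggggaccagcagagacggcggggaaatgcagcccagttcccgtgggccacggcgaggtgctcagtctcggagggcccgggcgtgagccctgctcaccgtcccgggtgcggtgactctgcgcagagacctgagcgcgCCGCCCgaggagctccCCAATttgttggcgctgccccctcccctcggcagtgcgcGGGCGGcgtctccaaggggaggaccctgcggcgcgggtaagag
Col4a5, chrX:141475169-141475468, plus strand: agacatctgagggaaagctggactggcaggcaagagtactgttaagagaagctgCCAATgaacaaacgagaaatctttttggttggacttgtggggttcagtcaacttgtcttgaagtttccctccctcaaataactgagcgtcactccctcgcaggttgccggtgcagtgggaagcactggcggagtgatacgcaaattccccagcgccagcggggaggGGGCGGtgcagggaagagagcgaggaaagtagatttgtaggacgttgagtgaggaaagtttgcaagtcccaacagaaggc
Col4a6, chrX:141474027-141474326, minus strand: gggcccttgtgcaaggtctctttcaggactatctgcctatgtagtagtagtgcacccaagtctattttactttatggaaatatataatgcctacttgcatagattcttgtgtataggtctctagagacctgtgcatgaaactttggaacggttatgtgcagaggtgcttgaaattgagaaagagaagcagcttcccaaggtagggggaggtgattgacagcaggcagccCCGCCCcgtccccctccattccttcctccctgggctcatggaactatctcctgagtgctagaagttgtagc

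The Col4a1 and Col4a2 windows overlap by 78 bases, and the Col4a5 and Col4a6 windows by 0. The Col4a1 window held 1 CCAAT box and 1 GC box, and the Col4a2 window 1 CCAAT box and 3 GC boxes. The GC box of the Col4a1 window lies in the overlap. It is the last GC box of the Col4a2 window read on the other strand, so 1 site is counted in both windows. The Col4a5 window held 1 of each and the Col4a6 window 1 GC box alone, and TATAAA was in none of the 4. Of the 44 collagens, 35 had a promoter in the RefSeq table. CCAAT was found on either strand in 12 of these 35 (34.3%), against 37.9% of 27025 promoters. GGGCGG was found in 22 of the 35 (62.9%), against 35.9%, and TATAAA in 5 (14.3%), against 14.2%. These matches describe letters in the window and show no binding.

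Pericytes, the contractile cells on capillaries, had the highest Col4a1 in each library and the highest Col4a2 in 3 of the 4. Col4a1 stood at 496 CPM (387–627) in pericytes of the library labelled CD8 KO, 463 CPM (327–635) in the 33-week library, 348 CPM (233–499) in the 30-week P301S library and 477 CPM (391–578) in the P301S-negative library. Col4a2 stood at 397, 292, 204 and 318 CPM in the same order, against 246, 205, 212 and 205 CPM in smooth muscle cells. The 30-week P301S library was lowest for both chains, with intervals that overlap those of the P301S-negative library. Averaged over libraries, Col4a1 stood at 446 CPM in pericytes and 285 CPM in smooth muscle cells, a ratio of 1.57.

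Endothelial cells, the most numerous vascular class, gave the most exact values. Col4a1 stood at 283 CPM (271–296) in endothelial cells of the library labelled CD8 KO, 224 CPM (211–237) in the 33-week library, 254 CPM (241–268) in the 30-week P301S library and 239 CPM (230–247) in the P301S-negative library. The library labelled CD8 KO was highest and the 33-week library lowest. Col4a2 stood at 205, 183, 185 and 169 CPM in the same order.

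The ratio of the chains differed little between vascular classes. Col4a1 had 1.37 UMIs per Col4a2 UMI in endothelial cells (1.32–1.41), 1.45 in pericytes (1.18–1.78) and 1.32 in smooth muscle cells (1.14–1.53). In fibroblasts the ratio was 1.59 (1.18–2.16), in ependymal cells 1.90 (1.48–2.45) and in Schwann cells 2.87 (1.76–4.83). Both intervals of the last pair lie above that of endothelial cells. Since the genes overlap by 22 bases on opposite strands and the strand setting of the counting is not given in the sources used here, reads in those bases cannot be assigned.

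**Figure D3:**
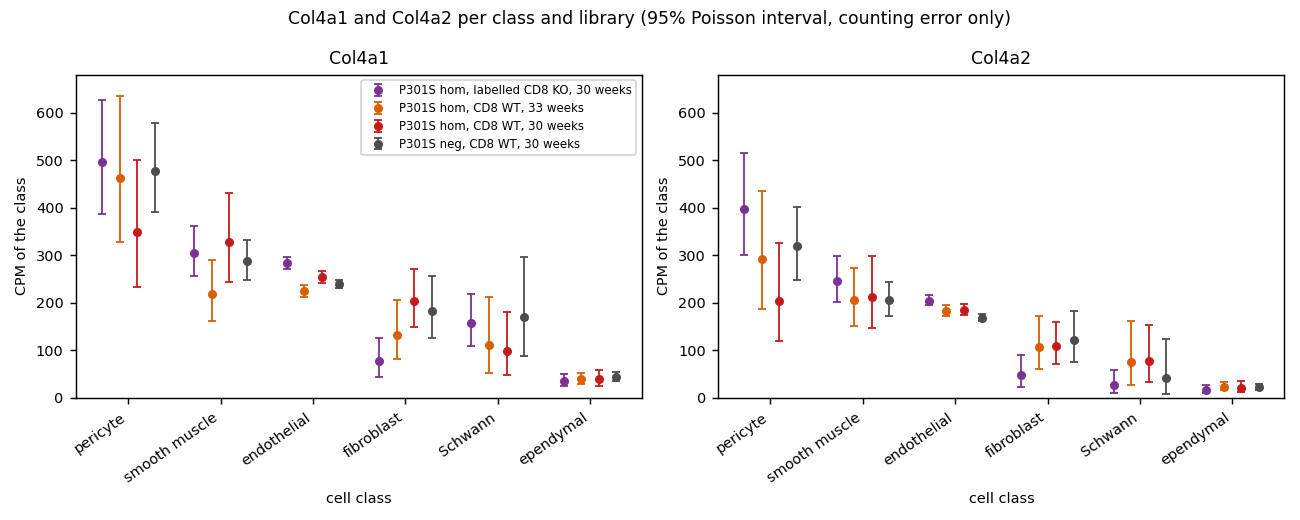
CPM of Col4a1 and Col4a2 in 6 cell classes, with 1 point per library and 95% intervals for counting error. Pericytes lie highest for Col4a1 in every library and for Col4a2 in every library but the 30-week P301S one, where smooth muscle cells are slightly higher (212 against 204 CPM). Endothelial cells sit in a narrow band between 224 and 283 CPM for Col4a1.

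The other type IV chains were rare and followed different classes. Col4a3 and Col4a4, which join Col4a5 in the basement membrane of the kidney filter, averaged 22.9 and 33.5 CPM in pericytes, their highest class. Col4a5 was highest in smooth muscle cells at 53.6 CPM, with 34.2 CPM in the library labelled CD8 KO, 49.1 CPM in the 33-week library, 70.5 CPM in the 30-week P301S library and 60.4 CPM in the P301S-negative library. Astrocytes were close behind at 47.0 CPM. The balance of Col4a5 against Col4a1 was the clearest split in the family. Endothelial cells had 9 Col4a5 UMIs against 7483 of Col4a1, a ratio of 0.0012. Smooth muscle cells had a ratio of 0.181 (0.14–0.232), ependymal cells 0.295 (0.215–0.399), and astrocytes 4.8 (1.8–16.1) from 24 and 5 UMIs. Col4a6, which lies beside Col4a5, averaged 11.4 CPM in pericytes and 9.53 CPM in smooth muscle cells.

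The other collagens of the mural classes were fibrillar or sat beside the basement membrane. In pericytes Col1a2 stood at 156, 73.1, 95.9 and 132 CPM, and Col3a1 at 135, 73.1, 108 and 223 CPM, in the library labelled CD8 KO, the 33-week library, the 30-week P301S library and the P301S-negative library. Pericytes had 7 Col1a1 UMIs against 65 of Col1a2, and smooth muscle cells 9 against 201, so type I RNA in these classes was almost all Col1a2. The list of 12 fibroblast markers summed to between 427 and 499 CPM in pericytes, with Pdgfra, Pi16, Mfap4 and Cemip at 0, and to between 22.3 and 47.9 CPM in smooth muscle cells, with Lum, Pdgfra and Dpt at 0. The part of fibroblast RNA in these values was not tested. Col26a1, a little-studied collagen, averaged 10.00 CPM in pericytes, and Col7a1, which forms the anchoring fibrils of skin, 7.09 CPM. Pericytes also held Col27a1, Col18a1, Col6a2, Col8a1 and Col5a2 among their top 10.

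Col18a1, a multiplexin of basement membranes whose end piece is endostatin, was highest in smooth muscle cells. It stood at 148 CPM in the library labelled CD8 KO, 75.9 CPM in the 33-week library, 109 CPM in the 30-week P301S library and 66.6 CPM in the P301S-negative library. The 3 smooth muscle clusters differed in it, at 187 CPM in the cluster led by haemoglobin genes (25, 5, 2 and 11 cells), 88.9 CPM in the cluster led by Nr4a2 (28, 20, 20 and 60 cells) and 27.9 CPM in the cluster led by Car4 (19, 25, 9 and 32 cells). The library labelled CD8 KO thus had the most cells of the cluster with the highest level. Haemoglobin genes lead that cluster, and the part of red cell RNA in it was not tested. Smooth muscle cells also held Col8a1, Col27a1, Col3a1, Col6a3 and Col4a3 in their top 10, each between 1.55 and 47.9 CPM in every library.

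Within the endothelium Col18a1 was highest in arterial cells. In the cluster named arterial from its markers, Col18a1 stood at 55.4 CPM (43.1–70.1) in the library labelled CD8 KO, 53.1 CPM (40–69.2) in the 33-week library, 61.6 CPM (48.1–77.7) in the 30-week P301S library and 119 CPM (104–135) in the P301S-negative library. In capillary cells it stood at 3.05, 4.34, 2.69 and 2.97 CPM in the same order. The P301S-negative library was highest in arterial cells and level with the others in capillary cells. In arterial cells the 30-week P301S library over the P301S-negative library gave a Col18a1 fold of 0.518 (0.391–0.678), which stayed short of the 2-fold line, while Col4a1 gave 1 (0.878–1.15). Col14a1 was also higher in arterial cells (18.4 CPM over all libraries) than in capillary cells (3.82 CPM). Col6a6 was found in venous cells at 24.8 CPM from 19 UMIs, in capillary cells at 1.19 CPM and with 0 UMIs in arterial cells (a limit of 0.553 CPM). Col5a2, Col4a3, Col8a1, Col4a4 and Col9a3, which complete the endothelial top 10, each lay at or under 3.06 CPM in every library.

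Schwann cells, the glia of the nerve roots, had a fibrillar profile. Col1a2 stood at 629 CPM in Schwann cells of the library labelled CD8 KO, 522 CPM in the 33-week library, 664 CPM in the 30-week P301S library and 395 CPM in the P301S-negative library. Col3a1 stood at 337, 361, 303 and 367 CPM in the same order. Col1a1 had 0.313 UMIs per Col1a2 UMI (0.243–0.4), below the ratio in fibroblasts. Col28a1, a von Willebrand-domain collagen known from peripheral nerve, averaged 102 CPM and was 45 times higher than in the next class. Col16a1, a FACIT, averaged 161 CPM, and Col27a1, a fibrillar chain best known from cartilage, 111 CPM. These 3 genes were highest in Schwann cells. The list of 12 fibroblast markers summed to 148, 435, 274 and 367 CPM, with 4 of 12 detected and Lum, Pdgfra and Dpt at 0, and the smooth muscle list reached 1939.5 CPM in the 33-week library against 89.9, 107 and 127 CPM in the library labelled CD8 KO, the 30-week P301S library and the P301S-negative library. The part of those cells in the Schwann values was not tested.

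The 2 Schwann clusters split these genes. In the cluster led by Nrn1, Scn7a and Sparcl1 (75, 23, 22 and 25 cells) Col16a1 stood at 197 CPM in the library labelled CD8 KO, 244 CPM in the 33-week library, 274 CPM in the 30-week P301S library and 218 CPM in the P301S-negative library. In the cluster led by Ncmap, Fam178b and Slc36a2 (12, 11, 15 and 9 cells), genes of which Ncmap marks myelinating cells, Col16a1 had 0 UMIs in all 4 libraries (a limit of 23.5 CPM for all 4 together). Col11a1 was split in the same way, at 143 CPM and 0 UMIs, as was Col27a1, at 155 and 7.84 CPM, and Col3a1, at 456 and 15.7 CPM. Col1a2 was less uneven, at 671 CPM in the Nrn1-led cluster and 345 CPM in the Ncmap-led cluster. Col12a1 ran the other way, with 0 UMIs in the Nrn1-led cluster and 6 UMIs (47.0 CPM) in the Ncmap-led cluster. Col4a1, Col5a2 and Col5a3 complete the top 10 of the class, and each lay between 42.3 and 169 CPM in every library.

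Ependymal cells, which line the central canal, showed a profile of their own. Col8a2, a type VIII chain known from the cornea, led with 71.0 CPM in the library labelled CD8 KO, 85.2 CPM in the 33-week library, 99.6 CPM in the 30-week P301S library and 107 CPM in the P301S-negative library. Its partner Col8a1 was scarce, so that the ratio of Col8a2 to Col8a1 was 6.11 (4.75–7.95) in ependymal cells and 0.358 (0.287–0.443) in fibroblasts. Col1a2 was present at 37.7 to 52.7 CPM, but of its 229 UMIs only 1 was matched by a Col1a1 UMI and 0 by a Col3a1 UMI. The list of 12 fibroblast markers summed to between 5.85 and 10.6 CPM in these cells. Col5a3, Col23a1, Col4a1, Col12a1, Col4a2, Col5a2 and Col4a5 complete the top 10, and each lay between 9.84 and 60.1 CPM.

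Astrocytes were few, at 22, 32, 33 and 34 cells. Col12a1 stood at 74.8 CPM in the library labelled CD8 KO, 203 CPM in the 33-week library and 212 CPM in the 30-week P301S library and had 0 UMIs in the P301S-negative library, a limit of 26.2 CPM. Col23a1, a transmembrane collagen, averaged 120 CPM and was highest in astrocytes, as were Col5a3 (84.9 CPM), a minor fibrillar chain, and Col20a1 (3.79 CPM), a FACIT. The P301S-negative astrocytes held 10535 CPM of neutrophil markers and 532 CPM of endothelial markers, against 44.9, 118 and 3058 CPM and 44.9, 45.8 and 38.6 CPM in the library labelled CD8 KO, the 33-week library and the 30-week P301S library. Their own markers summed to 18219 CPM, against 22857, 25921 and 24357 CPM, and the part of these other markers in the Col12a1 difference was not tested. Col1a2, Col9a3, Col4a5, Col11a1, Col16a1 and Col11a2 were also in the astrocyte top 10, with Col1a2 between 95.9 and 111 CPM, and Col27a1 was at 0 in the library labelled CD8 KO and the P301S-negative library.

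Oligodendrocyte precursors carried chains known from cartilage. Col9a3, a type IX chain, stood at 101 CPM in the library labelled CD8 KO, 109 CPM in the 33-week library, 160 CPM in the 30-week P301S library and 93.9 CPM in the P301S-negative library. Col11a2, a minor fibrillar chain, stood at 115, 47.5, 98.0 and 70.5 CPM in the same order. Both were highest in this class, each at 1.85 times the next. Col9a2, another type IX chain, was present at 6.74 to 32.9 CPM, and Col9a1, their partner chain, was not measured. Col16a1, Col27a1, Col11a1, Col4a1, Col5a3 and Col18a1 complete the top 10.

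In microglia and macrophages 1 gene made up most of the collagen RNA. Col27a1 held 74.7% of the collagen UMIs of this class. It stood at 32.1 CPM (29.8–34.5) in the library labelled CD8 KO, 30.2 CPM (27.4–33.2) in the 33-week library, 28.0 CPM (25.8–30.4) in the 30-week P301S library and 129 CPM (120–138) in the P301S-negative library. The 3 P301S libraries had overlapping intervals and lay well below the P301S-negative library. The fold of the 30-week P301S library over the P301S-negative library was 0.218 (0.196–0.243), in a class where 14.5% of all genes compared were at least 2-fold lower and 5.86% at least 2-fold higher and where the median of all genes was -0.35 on the log2 scale. Col27a1 in B, T and erythroid cells together, which include a B cell cluster at 8.92 CPM, stood at 4.01, 0.645, 3.79 and 2.75 CPM.

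The share of cells with a Col27a1 UMI was likewise highest in the P301S-negative library. With each cell thinned to 1000 UMIs, 4.33% (3.53–5.24) of microglia and macrophages had one in the library labelled CD8 KO, 4.61% (3.62–5.78) in the 33-week library, 3.98% (3.15–4.96) in the 30-week P301S library and 12.9% (11.0–14.9) in the P301S-negative library. Unthinned shares were 23.9%, 21%, 22.5% and 38.3%. Thinning left out 42, 47, 32 and 145 cells. Thinned neutrophils, which should lack the gene, had shares of 0%, 0%, 0.175% and 0.176%, with upper bounds between 0.735% and 2.15%. Median depth before thinning was 9411, 8182, 10417 and 4982 UMIs in microglia and macrophages and 1931, 2158, 2772 and 2576 UMIs in neutrophils.

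Within the clusters of this class the difference was not the same. In the cluster led by Crybb1, P2ry12 and Slc2a5, of which P2ry12 is known from resting microglia, Col27a1 stood at 138 CPM in the library labelled CD8 KO, 116 CPM in the 33-week library, 160 CPM in the 30-week P301S library and 140 CPM in the P301S-negative library, and the fold of 30-week P301S over P301S-negative was 1.14 (0.939–1.37). That cluster held 11.8%, 12.3%, 8.19% and 75.0% of the class in the same order. A second cluster with P2ry12, led by Crybb1, Ly6a and Grap, had Col27a1 at 35.2, 48.2, 36.6 and 30.3 CPM from 4, 5, 4 and 8 UMIs, and held 16.5% of the P301S-negative class. In the cluster led by Ccl12, Ccl4 and Cxcl10 Col27a1 stood at 42.6, 47.2, 46.2 and 92.1 CPM, and the fold was 0.501 (0.351–0.734) with 64 P301S-negative cells. The clusters led by Gpnmb and by Fn1 and Postn had between 11.9 and 16.0 CPM in the 3 P301S libraries, and only 5 and 3 cells in the P301S-negative library. Border macrophages had 5.70 CPM over all libraries. The class difference thus moves with the mix of clusters, and the part of each in it was not tested. Split by sex, Col27a1 stood at 35.4 CPM in female and 26.7 CPM in male cells of the 33-week library, and at 127 CPM in female and 133 CPM in male cells of the P301S-negative library.

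**Figure D4:**
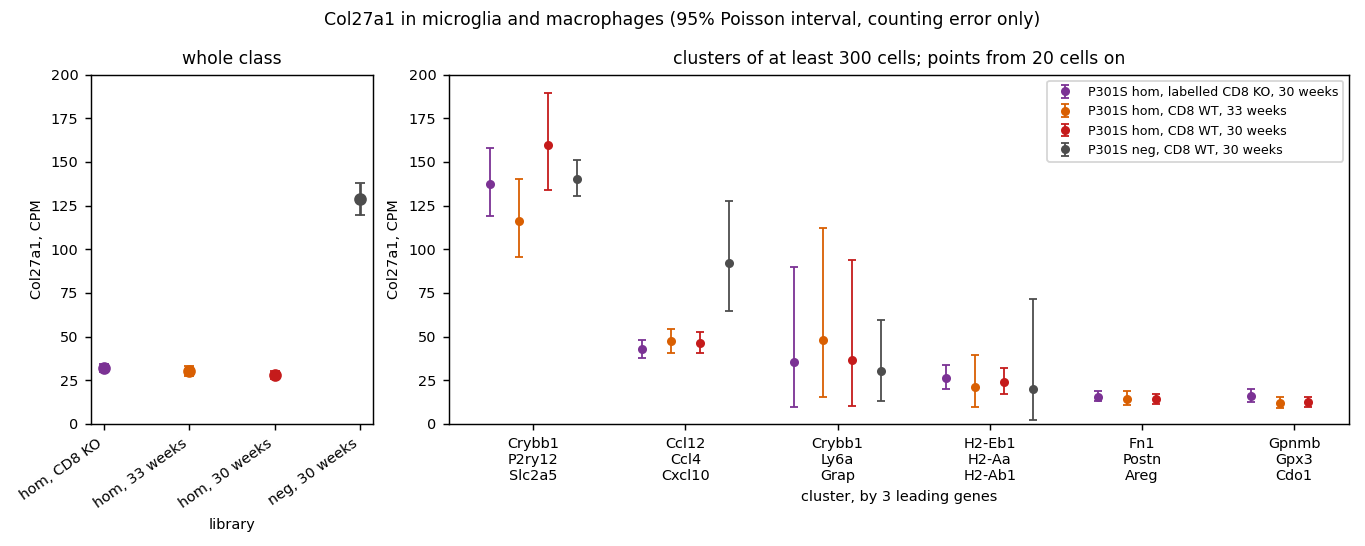
Col27a1 CPM in microglia and macrophages with 95% intervals for counting error, for the whole class in each library (left) and within its larger clusters (right, libraries with at least 20 cells). The whole class shows 129 CPM in the P301S-negative library against 28.0 to 32.1 CPM in the others, while in the cluster led by Crybb1, P2ry12 and Slc2a5 all 4 libraries lie between 116 and 160 CPM.

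Col15a1 was the other collagen of this class, at 7.93 CPM (6.83–9.17) in the library labelled CD8 KO, 7.08 CPM in the 33-week library, 7.80 CPM in the 30-week P301S library and 12.2 CPM (9.64–15.3) in the P301S-negative library. Its fold of 30-week P301S over P301S-negative was 0.637 (0.483–0.848), and in the Crybb1-led cluster it was 1.40 (0.744–2.48). Every other collagen, including Col25a1, Col4a1, Col4a2, Col1a2, Col9a2, Col6a3, Col11a2 and Col14a1 of the top 10, stayed at or under 1.13 CPM in each library. In monocytes Col4a1 led with 1.51, 5.91, 3.12 and 3.62 CPM in the library labelled CD8 KO, the 33-week library, the 30-week P301S library and the P301S-negative library. In B, T and erythroid cells pooled Col4a1 stood at 6.01, 1.29, 1.26 and 3.85 CPM. Monocytes lay above that background in the 33-week and 30-week P301S libraries and below it in the other 2 libraries. All collagens together gave only 5, 32, 18 and 27 UMIs in monocytes in the same order. With such counts and no interval given, these differences are not read as expression. The other monocyte genes of the top 10, Col4a2, Col27a1, Col11a2, Col1a2, Col23a1, Col16a1, Col5a1, Col25a1 and Col17a1, stayed at or under 3.11 CPM. In neutrophils Col27a1, Col1a1, Col4a2, Col5a1, Col4a1, Col11a2, Col20a1, Col23a1, Col14a1 and Col18a1 were highest, and none exceeded 1.85 CPM. At 1 to 5 UMIs a library, the neutrophil values are not read as expression.

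Outside fibroblasts the comparisons gave few large differences. In the 30-week P301S library over the P301S-negative library, 24 values of 14 genes could be compared in classes of at least 30 cells, each with 50 UMIs or more over both libraries. Of these, 0 were at least 2-fold higher and 2 were at least 2-fold lower, against 2.11% and 4.43% of all genes in the same classes. The lower pair was Col27a1 in microglia and macrophages, given above, and Col3a1 in pericytes. Col3a1 in pericytes had 9 UMIs in the 30-week P301S library against 49 in the P301S-negative library, a fold of 0.484 (0.209–0.996), where 4.07% of pericyte genes compared were at least 2-fold lower. Of those 49 UMIs, 29 lay in 3 cells (59.2%), and the fold was 0.940 as a mean over cells, 0.566 with collagens in the clustering and 0.509 at resolution 2.0, all short of 2-fold. The median over the 24 values was -0.09 on the log2 scale, and Col4a1 and Col4a2 in endothelial cells lay at 1.06 (0.998–1.13) and 1.10 (1.02–1.18).

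In the library labelled CD8 KO over the 30-week P301S library, 23 values of 15 genes were compared, and 0 were at least 2-fold higher and 0 at least 2-fold lower, against 0.841% and 0.902% of all genes. The highest was Col4a2 in pericytes, at 397 CPM (300–515) in the library labelled CD8 KO and 204 CPM (119–326) in the 30-week P301S library, a fold of 1.95 (1.11–3.57). Col4a1 in the same cells gave 1.43 (0.913–2.28), and in endothelial cells 1.12 (1.04–1.2). In the 33-week library over the 30-week P301S library, 20 values of 13 genes were compared, and again 0 were past 2-fold in either direction, against 0.582% and 0.57%. Endothelial Col4a1 lay at 0.880 (0.814–0.953) and Col4a2 at 0.990 (0.905–1.08). The widest values were Col23a1 in astrocytes at 1.73 (0.967–3.17) and Col14a1 in endothelial cells at 0.581 (0.329–1).

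**Figure D5:**
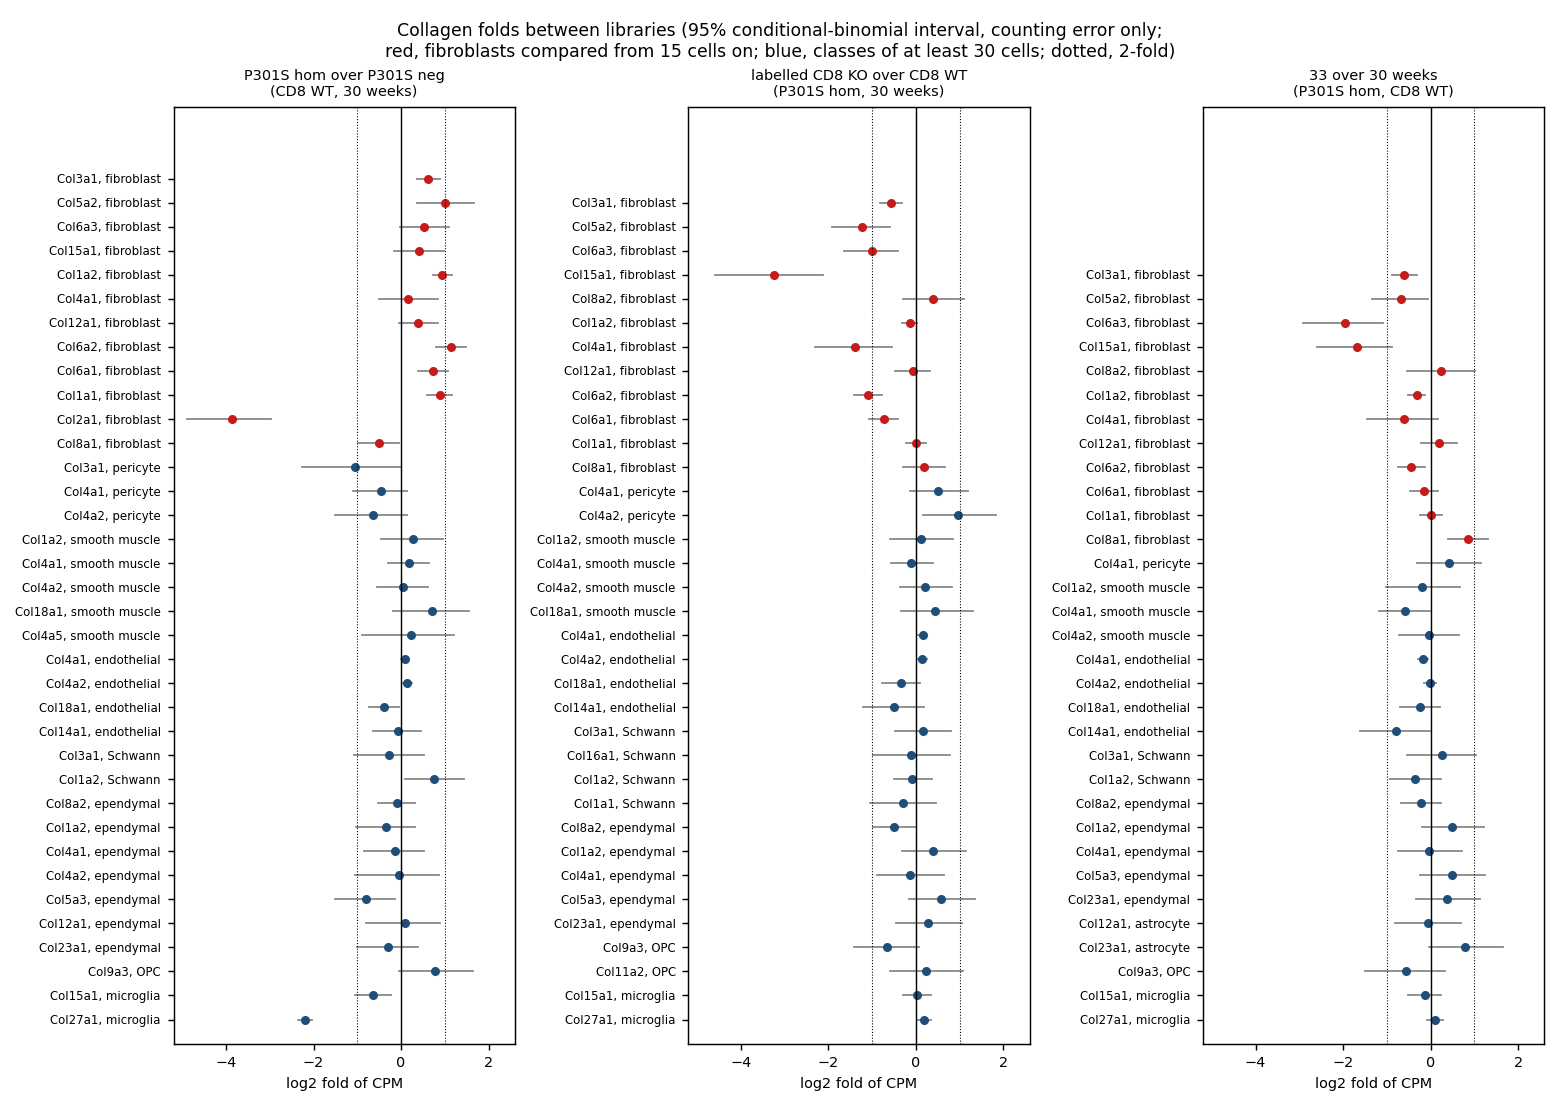
Log2 folds of collagen genes in 3 comparisons (30-week P301S over P301S-negative, CD8 KO over wild type, 33 over 30 weeks), each with a 95% interval for counting error. Blue points are classes of at least 30 cells, red points fibroblasts of at least 15 cells, and dotted lines mark 2-fold. Most blue points lie within the lines, and the blue point farthest out is Col27a1 in microglia and macrophages at -2.20.

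Genes that build, cut and sense collagen were also ranked by class. Of 19 measured genes for modification and folding 9 were highest in fibroblasts, as were 7 of 11 for propeptide processing and crosslinking, 4 of 9 collagen receptors and 4 of 8 genes of fibrosis-associated matrix. Serpinh1, the collagen chaperone HSP47, stood at 1217 CPM in fibroblasts, 613 CPM in pericytes, 546 CPM in Schwann cells, 268 CPM in endothelial cells and 0.559 CPM in microglia and macrophages over all libraries. Pcolce, which speeds the removal of the C-propeptide, stood at 1053 CPM in fibroblasts. Of 15 basement membrane partners 5 were highest in pericytes, among them Nid1 (287 CPM) and the laminin chain Lamc1 (298 CPM). Lair1, an inhibitory collagen receptor of immune cells, was highest in microglia and macrophages at 339 CPM. Some of these ranks are narrow, such as Bmp1 at 103 CPM in fibroblasts and 100 CPM in astrocytes. No share of all genes by highest class is given beside the counts per list, so they are not read as results about the lists.

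In microglia and macrophages of the 30-week P301S library over the P301S-negative library, 2 of 13 modification genes compared were at least 2-fold lower and 0 higher, against 14.5% and 5.86% of all genes in this class, so the lower share is near the background. Plod1, a lysyl hydroxylase, stood at 45.2 CPM in the 30-week P301S library against 94.5 CPM in the P301S-negative library, a fold of 0.478 (0.431–0.531), and P3h2, a prolyl hydroxylase, at 21.7 against 55.5 CPM, a fold of 0.390 (0.339–0.45). Of 3 processing genes 1 was higher and 1 lower, against the same 5.86% and 14.5%. Lox, which crosslinks collagen, stood at 13.2 against 1.45 CPM, a fold of 9.08 (4.71–20.1), and Sparc, a collagen-binding protein, at 1140 against 2570.4 CPM, a fold of 0.444 (0.435–0.453). Of 3 fibrosis-associated genes 2 were higher, against 5.86% of all genes, Fn1 and Postn, which also lead the cluster that had 507 cells in the 30-week P301S library and 3 in the P301S-negative library. Of 3 receptors and 3 basement membrane partners 0 were past 2-fold. In the comparisons by CD8 genotype and by age, 0 genes of the 5 lists were past 2-fold in this class. In pericytes, Schwann cells and ependymal cells 0 genes of these lists were past 2-fold in any of the 3 comparisons, and in endothelial cells the only one was Lamc3, a laminin chain, at 2.16 (1.25–3.83) in the 33-week library over the 30-week P301S library. Of all endothelial genes compared by age, 0.334% were at least 2-fold higher. In fibroblasts of at least 15 cells, 0 of 7 modification genes and 0 of 3 receptors were past 2-fold in any comparison. There, 30-week P301S over P301S-negative gave, against 3.06% of all genes higher and 4.25% lower, 1 higher of 5 processing genes, Adamts2, which removes the N-propeptide, at 2.1 (1.29–3.51), and 3 lower of 4 fibrosis-associated genes, Ccn2 at 0.339, Fbn1 at 0.253 and Tgfbi at 0.476. Fbn1, the fibrillin of microfibrils, was in turn higher in the library labelled CD8 KO (2.56) and in the 33-week library (2.64) over the 30-week P301S library, while Fn1 (0.439 and 0.380) and Hspg2 (0.340 and 0.499) were lower in both, against 3.55% and 1.88% of all genes higher and 3.91% and 4.86% lower. All of these fibroblast folds use the 30-week P301S library, so the values of 1 gene are not independent of each other. They rest on at most 35 cells per library, and the share of their UMIs held by single cells is not given. Elsewhere the lists gave 8 further values past 2-fold. Fn1 in smooth muscle cells was higher in the library labelled CD8 KO (2.90, 1.24–8.29), against 1.74% of all genes compared. In astrocytes Ppib (2.24) and Ddr1 (4.65) were higher in the 30-week P301S library over the P301S-negative library, whose astrocytes carried the neutrophil markers given above and where 19.7% of all genes compared were higher. P4ha3 (2.34) in astrocytes was higher in the 33-week library over the 30-week P301S library, against 1.51% of all genes compared. Sparc in monocytes lay at 0.421 by P301S and at 2.66 by age, and in neutrophils at 2.39 in the library labelled CD8 KO. The shares of all genes past 2-fold in the same direction were 0.945%, 0.587% and 1.66%. Colgalt1 in neutrophils lay at 0.498 by age, against 1.09% of all genes compared that were lower.

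In genome order, 6 pairs of measured collagens lay within 200000 bases of each other, and 4 of the 6 had the same highest class. Col3a1 with Col5a2 and Col6a2 with Col6a1 were both highest in fibroblasts, and Col4a1 with Col4a2 and Col4a4 with Col4a3 in pericytes. The exceptions were Col6a6 with Col6a5 and Col4a6 with Col4a5. Of the 38 measured collagens, 19 were highest in fibroblasts and 7 in pericytes, so pairs that are not neighbours can share a class too. No share for such pairs is given, and 4 of 6 is not read as a result about neighbours. The highest classes of Col6a6, Col4a6 and Col4a5 stood at only 1.10, 1.19 and 1.14 times the next.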

How the data were processed

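Single cells of mouse spinal cord were measured in 4 libraries, 1 per group, each of 2 pooled cords. The deposited matrices hold raw UMI counts per gene and cell, made with Cell Ranger 6.0.1 per the file headers and aligned to mm10 per the submitters' processing notes. The strand setting and annotation are not given in the sources used here. Of 22644 barcodes, 20191 passed limits of 500 UMIs, 200 genes and 15% mitochondrial UMIs and were not called doublets (scrublet in scanpy 1.11.5). Cells were clustered on 2000 variable genes without collagens (30 principal components, 15 neighbours, Leiden resolution 1). Cells with markers of 2 lineages were left out (458, 230, 289 and 534 in the library labelled CD8 KO, the 33-week library, the 30-week P301S library and the P301S-negative library), and doublet calls, also left out, numbered 69, 44, 58 and 92. The thresholds for naming classes were chosen after the clusters were seen, so rebuilt names may differ from the study's own.

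UMIs were summed per class and library and divided by the class total (CPM). CPM has exact Poisson, folds and ratios exact conditional-binomial, and shares exact binomial 95% intervals, for counting error only. A fold was read where both libraries had at least 30 cells of the class (15 for fibroblasts) and at least 50 UMIs together. All genes that reached 50 UMIs give the background share past 2-fold. The fold, interval and count code was tested on simulated data. Named are every member past 2-fold, the 10 highest of each class, and every measured member for its highest class. Members and lists were chosen with earlier results of these data known. Positions are from GENCODE M21 and promoters from RefSeq. Alternatives tried are other scalings, filters, clusterings, fold limits and cells of 1 sex.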

Additional observations from a re-analysis of the deposited data

Results flagged for a closer look

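The cell classes outside the comparisons held 3 collagen signals above the level in neutrophils and monocytes pooled. Col5a1, a minor fibrillar chain, stood at 35.1 CPM (30.4–40.3) in the erythroid cluster led by Car1, Top2a and Stmn1, with 198 UMIs in 89 of 462 cells, against 0.612 CPM in neutrophils and monocytes. It stood at 60.2 CPM in the library labelled CD8 KO, 35.2 CPM in the 33-week library, 42.9 CPM in the 30-week P301S library and 23.5 CPM in the P301S-negative library. The erythroid cluster led by Xpo7 held 2.34 CPM, and the one led by Lyz2 had 0 UMIs.

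Both other signals lay in the B cell cluster led by Jchain, Igha and Ighg2b. Its 10 leading genes hold antibody genes of secreting cells and also Igll1, Vpreb1 and Sox4, known from precursor B cells. Col27a1 stood at 8.92 CPM (5.45–13.8) there, with 20 UMIs in 18 of 452 cells, against 1.43 CPM in neutrophils and monocytes, and at 12.2, 5.65, 5.50 and 11.0 CPM in the 4 libraries in the order above. Col5a3 stood at 9.81 CPM (6.15–14.9), with 22 UMIs in 19 of 452 cells, against 0.0680 CPM, and at 12.2, 19.8, 1.83 and 10.2 CPM in the same order. No cause was tested for any of the 3.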

How the results depend on the processing

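No paired analysis was possible because each group is 1 library, and no replicate could be left out for the same reason. As reported, the comparison by P301S had 0 collagens at least 2-fold higher and 2 lower, and those by CD8 genotype and by age 0 and 0. With TMM scaling the CD8 KO comparison had 1 higher. From 20 UMIs the counts were 5 and 6 by P301S, 1 and 1 by CD8 genotype, and 2 lower by age. From 200 UMIs there was 1 lower by P301S. With 1 UMI in each library they were 25 and 21, 19 and 19, and 24 and 22. With collagens in the clustering, at resolution 2.0, and at 3-fold, 1 was lower by P301S. With a mean over cells, 1 was higher by P301S and 2 lower by age. At 1.5-fold the counts were 3 and 5, 1 and 1, and 1 and 1. Fibroblasts from 15 cells on were added after the data were seen. Their values alone gave 2 higher and 1 lower by P301S, 5 lower by CD8 genotype and 2 lower by age. With cells of 2 lineages kept, also chosen after the data were seen, the counts were 6 and 5 by P301S, 3 lower by CD8 genotype and 1 higher by age. The cause of these moves was not tested, except that fewer or more genes are compared under the UMI limits. Except for fibroblasts, these counts stand without the number compared and the share of all genes under the same setting. They are therefore not read as results about collagens. The counts did not move with at least 1000 UMIs per cell, at most 10% mitochondrial UMIs, doublet calls kept, cells of their own markers alone, or collagens left out of the totals. Within 1 sex they did not move either, but only 12, 10 and 6 values could be compared.

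Among 110 recomputed values of 8 named folds, 105 moved by less than their counting interval and 5 by more. Col27a1 in microglia and macrophages, 30-week P301S over P301S-negative, was 0.294 with TMM scaling and 0.316 with a mean over cells. Within 1 sex, endothelial Col4a2 was 1.19 by P301S and 0.903 by age. Endothelial Col4a1 was 1.24 in male cells of the library labelled CD8 KO, but over the 33-week library, since the 30-week P301S library had no male cells, so that age and library change with sex in this value. Depth limits the small classes most: a collagen with 0 UMIs in fibroblasts could still stand at 14.6 CPM in the library labelled CD8 KO and 19.9 CPM in the 33-week library.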
